A study of Mus musculus with 16 samples.

Results

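Carbonic anhydrases interconvert carbon dioxide with bicarbonate and protons, and bicarbonate transporters carry the product across the membrane. The set described here holds 8 of the 25719 mouse genes in the count files: Car2, Car3, Car4, Car9, Car12, Car13 and Car14, and the bicarbonate transporter Slc4a7. They were taken by name after Ensembl identifiers had been matched to mouse symbols. Of the 8, 6 passed the expression filter that decided which 14803 genes were tested, and Car2 and Car4 did not.

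RNA of mouse tail tendon fascicles, thin collagen strands drawn from the tail, was sequenced in 16 libraries, 8 of wild type and 8 of ScxCre;Vhlf/f animals, called knockout here. The knockout carries loxP-flanked Vhl alleles and Cre recombinase driven by Scx, a tendon lineage gene, so deletion is limited to cells with a history of Scx expression and the other cells of the strand keep Vhl. The labels give the cell type as all tissue cells, and each value is thus an average over whatever the dissected strand held. In such bulk RNA a change in the number of cells of a type and a change in RNA per cell cannot be told apart. Age and sex were not given in the sources used here. Nothing in the labels states that libraries of a group came from separate animals, so p-values measure the spread between these samples, which may be technical.

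The family divides by where its enzymes work. Car9, Car12 and Car14 sit in the plasma membrane with the catalytic domain outside the cell, Car4 is held on the outer face by a lipid anchor, and Car2, Car3 and Car13 are cytosolic. Slc4a7 brings sodium and bicarbonate into the cell, which neutralises acid inside. Vhl belongs to the ubiquitin ligase that marks hydroxylated hypoxia-inducible factors (HIF) for degradation, and Car9 is a textbook HIF target whose product helps cells with active glycolysis to export acid.

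Promoters were compared because Car9 is known to be driven through a HIF-binding element close to its start site. Of the 8 genes, 5 had a 300-base promoter (250 bases before and 50 from the start site on) in the RefSeq table of build GRCm38.p6. Both strands were searched for ACGTG and GCGTG, the core letters of the HIF element. The sequences of Car9, of Car14 (which shares its motif and some flanking letters) and of Car12 (which has neither motif) are printed 5′ to 3′ in the direction of the gene. Capitals mark the motif, which reads CACGT here because ACGTG lies on the opposite strand.
Car9, chr4:43506776-43507075, plus strand: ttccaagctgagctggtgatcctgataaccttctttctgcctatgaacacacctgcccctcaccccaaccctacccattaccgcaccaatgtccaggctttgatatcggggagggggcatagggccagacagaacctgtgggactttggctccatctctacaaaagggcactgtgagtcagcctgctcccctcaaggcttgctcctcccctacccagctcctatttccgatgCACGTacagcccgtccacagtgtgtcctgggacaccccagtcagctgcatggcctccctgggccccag
Car14, chr3:95904636-95904935, minus strand: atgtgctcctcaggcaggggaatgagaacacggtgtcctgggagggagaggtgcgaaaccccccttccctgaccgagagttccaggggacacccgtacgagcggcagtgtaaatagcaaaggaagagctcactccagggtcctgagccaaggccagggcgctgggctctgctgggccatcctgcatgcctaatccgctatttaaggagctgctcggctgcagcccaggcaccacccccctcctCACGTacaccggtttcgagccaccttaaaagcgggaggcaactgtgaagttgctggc
Car12, chr9:66713436-66713735, plus strand: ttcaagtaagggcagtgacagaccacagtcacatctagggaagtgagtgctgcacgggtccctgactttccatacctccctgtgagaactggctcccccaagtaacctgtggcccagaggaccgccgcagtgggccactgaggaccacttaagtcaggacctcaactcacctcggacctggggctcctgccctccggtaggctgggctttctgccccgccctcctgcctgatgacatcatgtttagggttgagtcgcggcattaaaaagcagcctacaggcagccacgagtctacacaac

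The first base of the motif lay at -18 relative to the start site in Car9, at -7 in Car14 and at 2 in Car4. Around it, Car9 and Car14 shared the run CACGTACA, which 100 of 32851 promoters of the same length (0.304%) held on either strand. Among them was Atp6ap1, another acid-base gene named below. The run was picked as the longest with a motif that any pair of these genes shared, so its share measures no surprise. Neither motif was found in the windows of Car12 and Slc4a7. ACGTG occurred in 19.6% of all promoters in the table and ACGTG or GCGTG in 43.8%, so a match is common and is given as a description of these letters only.

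The knockout libraries held 10488355 to 18753254 counts and the wild type libraries 10792900 to 16379401. Levels are in CPM, counts scaled to a common library size after the trimmed mean of M-values (TMM) correction, and 3 counts, taken as the detection floor, were worth 0.145 to 0.336 CPM. Vhl itself lay below every wild type library in every knockout library, at 9.35 ± 1.25 against 20.5 ± 3.69 CPM (SD, n = 8 each). The libraries also differed in the RNA of other tissues. The summed level of 12 skeletal muscle markers ran from 369 to 22005 CPM in knockout libraries, highest in libraries 6, 7 and 8. In wild type libraries it ran from 97.9 to 9374 CPM, highest in library 5. Log2 fold changes of members that rest on those 3 knockout libraries are given with and without them. Marker sums and levels per length are given over all libraries.

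All 6 tested genes passed an adjusted p of 0.05, 5 higher and 1 lower in the knockout. Over all tested genes 48.3% passed, 25.6% higher and 22.7% lower, so passing alone was common in this comparison. The median log2 fold change of the 6 was 0.71, against 0.018 for all tested genes. Car9 and Car3 also changed at least 2-fold, as 13.2% of tested genes did (8.3% higher). Car9 was the 1 gene of the 6 whose groups did not overlap, a property of 19.4% of tested genes (10.8% with the knockout above and 8.61% with it below). It was also the 1 gene that stayed past the threshold in each of the 29 other settings tried. These genes were proposed with results of the same data known, so the counts describe them and are no independent support.

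**Figure D1:**
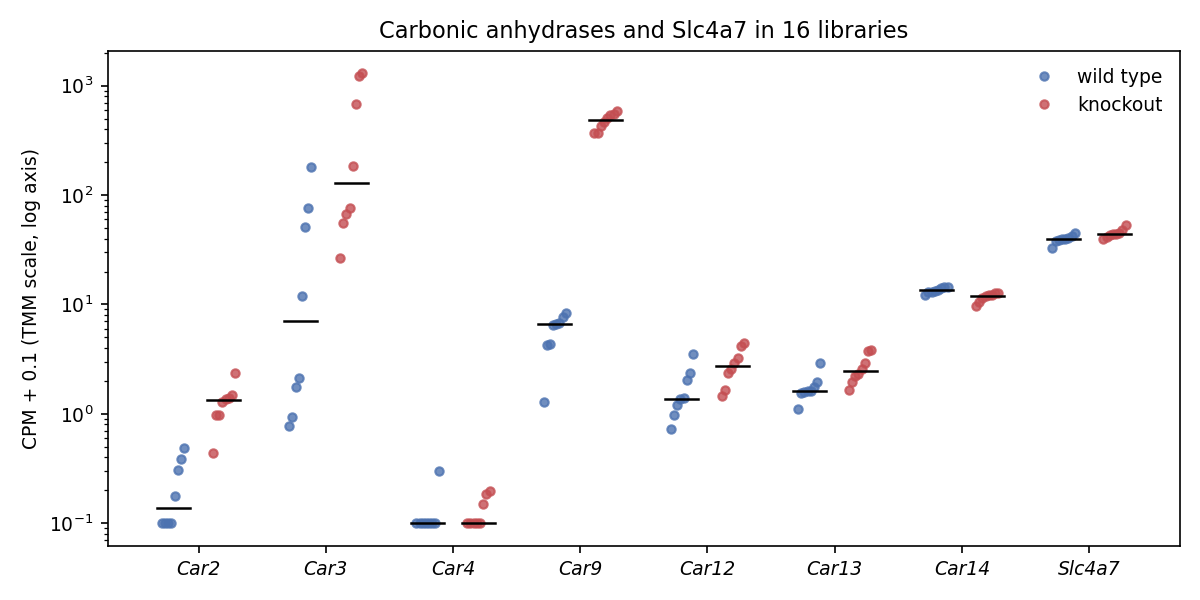
Level of each of the 8 genes in 16 libraries, in CPM on the TMM scale with 0.1 added so that zeros show, on a log axis. Points are libraries (blue wild type, red knockout) and bars are group medians. Car9 is the only gene of the 6 tested whose groups are fully apart, Car3 spans the widest range within each group, and Car4 lies at the bottom in both.

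Car9 encodes the membrane-bound, outward-facing enzyme named above. It was measured at 366 CPM in the lowest knockout library, 485 at the median and 587 in the highest, and at 1.17, 6.50 and 8.18 CPM in the wild type. The lowest knockout library thus stood far above the highest wild type library. The log2 fold change was 6.40 (SE 0.289), an 84.3-fold rise with a 95% interval of 55.2 to 129 (Benjamini-Hochberg adjusted p = 1.04e-11 by the edgeR quasi-likelihood test, n = 8 each).

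By its level Car9 moved from rank 11101 of 14803 tested genes in the wild type to rank 136 in the knockout, and by its fold change it stood at rank 37. Its spread was also narrow in the knockout, where the highest library exceeded the lowest by 1.60-fold, against 6.99-fold in the wild type. The wild type range was set by library 3, with 15 counts of Car9 against 37 to 109 in the other wild type libraries. Within the knockout, libraries 6, 7 and 8 held the 3 lowest values, 366, 371 and 429 CPM, and the other 5 lay between 469 and 587 CPM. These 3 also had the most muscle RNA. Leaving them out gave a log2 fold change of 6.54, and a muscle covariate gave 6.58. An antisense transcript, Gm12454, overlaps 9.29% of the Car9 exon bases and is not among the counted genes. Whether reads were counted by strand is not given in the sources used here.

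Car12 and Car14 encode the other transmembrane enzymes that face outward. Car12 was low throughout, at 1.36, 2.64 and 4.33 CPM (lowest, median, highest) in the knockout and 0.624, 1.27 and 3.40 CPM in the wild type. The groups overlapped widely, and wild type library 2 lay above 6 of the 8 knockout libraries. The log2 fold change was 0.80 (SE 0.309, adjusted p = 0.0400 by the edgeR quasi-likelihood test). The gene had 338 counts over all knockout libraries and 146 over all wild type libraries. Its adjusted p lay between 0.00286 and 0.470 over the other settings. The call was lost in 14 of them, among them the endothelial score as a covariate (0.52) and leaving out any 1 of 9 libraries.

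Car14 was the 1 gene of the 6 that fell. It was measured at 9.48, 11.9 and 12.6 CPM in the knockout and 12.1, 13.3 and 14.3 CPM in the wild type. The groups overlapped at their edge, through the lowest wild type library, library 3. The decrease was small, -0.22 on the log2 scale (SE 0.0713, adjusted p = 0.0177 by the edgeR quasi-likelihood test), or 0.861 of the wild type level. Scaling by total counts shifted the median log2 fold change over all tested genes to 0.32 and turned Car14 to 0.092 (adjusted p = 0.334), which is -0.23 relative to that median. Exons of Aph1a, a subunit gene of gamma-secretase, overlap 17.5% of the Car14 exon bases on the opposite strand. Aph1a differed by the same amount, -0.22 (adjusted p = 0.0159 by the same test), at 55.6 ± 6.54 against 64.9 ± 5.24 CPM, so the count of Car14 is uncertain.

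Car4, the lipid-anchored enzyme known from capillary endothelium, had 4 counts in all knockout libraries together and 2 in all wild type libraries. No library exceeded the floor of 3 counts, so no fold is given. Endothelial marker RNA was higher in the knockout. The summed level of 10 markers was 38.2, 161 and 499 CPM in the knockout and 30.6, 38.5 and 50.2 CPM in the wild type. Knockout libraries 6, 7 and 8 held 324, 499 and 346 CPM. The sums of libraries 2 and 3, 38.2 and 53.7 CPM, lay within or near the wild type range. Much of the low sums was Tek, at 17.5 CPM in knockout library 2 and 14.2 to 31.7 CPM in the wild type. Of 7 tested markers 5 were past the threshold, all higher, and Tek and Esam were not. Pecam1 held 4.59 and 8.89 CPM in knockout libraries 2 and 3, against at most 2.02 CPM in the wild type. In library 2 Cdh5 (5.02 CPM) and Kdr (1.45 CPM) lay within the wild type range. The mean score of the 7 tested markers differed by 2.28 log2 units (exact permutation test, p = 0.000311, n = 8, and 0.00103 adjusted over 11 marker lists). That difference is not given without knockout libraries 6, 7 and 8.

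Car3, Car13 and Car2 are cytosolic, and with Car1 they are neighbours on chromosome 3 with 0 coding genes between them. Car3 is known for very high levels in slow-twitch muscle fibres and in fat, and for weak activity. It was measured at 26.3, 130 and 1299 CPM in the knockout and 0.673, 6.94 and 180 CPM in the wild type. Knockout libraries 6, 7 and 8 held 678, 1299 and 1236 CPM and the other 5 between 26.3 and 185 CPM. Wild type libraries 5, 7 and 4 reached 180, 75.9 and 50.8 CPM, inside the knockout range. The log2 fold change was 3.49 with a wide error (SE 1.26, 95% interval 0.79 to 6.18, adjusted p = 0.0331 by the edgeR quasi-likelihood test).

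The level of Car3 followed muscle RNA from library to library. The genes whose deviations from the genotype means were most like those of Car3 over the 16 libraries were Actn3 (Pearson r 0.990), Myo18b (0.986) and Pdlim3 (0.985), genes of the sarcomere and its attachment, and r with the mean score of the 12 muscle markers was 0.983. The muscle score differed between the genotypes by 2.42 log2 units (exact permutation test, p = 0.0664, n = 8; 0.0811 adjusted over 11 lists). Of the 12 markers, Myh2 and Myh7 were past the threshold, both higher. Without knockout libraries 6, 7 and 8 the log2 fold change of Car3 was 1.02 (adjusted p = 0.511 by the edgeR quasi-likelihood test).

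Relative to muscle RNA, however, Car3 stood higher in the knockout. As a share of the summed muscle markers it was 4.37%, 6.10% and 7.13% in the knockout (lowest, median, highest) and 0.402%, 1.75% and 3.27% in the wild type. The sum was not scaled by length, and the long gene Ttn weighed most in muscle-rich libraries. It held 14231 of 22005 CPM in knockout library 7 and 5791 of 9374 CPM in wild type library 5. Wild type libraries 1, 2, 6 and 8 had sums of only 97.9 to 167 CPM. In them Myh2 held 31.4 to 83.7 CPM and Acta1 1.89 to 4.39 CPM, so their shares rest on little muscle RNA. Wild type libraries 3, 4, 5 and 7, with sums of 748 CPM or more, had shares of 1.59% to 3.27%. All 8 knockout libraries lay above the highest wild type library, and the geometric means differed 4.20-fold (exact permutation test, p = 0.0001554, the smallest this design gives, n = 8). With the muscle score as a covariate in the edgeR fit, the difference was 1.75 log2 units (adjusted p = 1.03e-06). The mean muscle score itself differed by 2.42 log2 units between the genotypes, so this fit may also take out part of the genotype difference.

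Whether a shift was seen, and its size, depended on which muscle gene Car3 was set against, in comparisons chosen after the values had been seen. The log2 ratio, with 0.1 CPM added to both terms, differed by 2.00 between the genotypes with the whole list, by 2.79 with markers of fast fibres (Myh1, Myh4, Tnnt3, Tnni2, Mylpf and Actn3) and by 2.24 with Ckm (exact permutation tests, p = 0.0001554, 0.0001554 and 0.0003108, n = 8). With Myh2, another myosin, it differed by 2.59 (exact permutation test, p = 0.00824, n = 8). Against Myh7, the myosin of slow fibres, it differed by -0.43 (exact permutation test, p = 0.643, n = 8). Myh7 itself was measured at 5.62, 48.9 and 421 CPM in knockout libraries and at 0, 1.76 and 21.0 CPM in wild type libraries. In wild type libraries 2, 3 and 6 Myh7 held 0, 0.234 and 0.169 CPM, near the 0.1 CPM added. The log2 fold change of Myh7 was 4.80 (SE 1.18, adjusted p = 0.00359 by the edgeR quasi-likelihood test).

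Fat is another known source of Car3. The summed level of 9 adipocyte markers was 2.81, 14.4 and 79.4 CPM in the knockout and 2.12, 4.34 and 10.1 CPM in the wild type, and 2 of the 9, Plin4 and Fabp4, were high enough to test. Knockout libraries 6, 7 and 8 again held the highest sums. Adipoq, a defining fat gene, had 79 knockout counts and 1 wild type count. Libraries 6, 7 and 8 held 0.963, 2.33 and 0.679 CPM of it, and no other knockout library exceeded 0.171 CPM. Lep, also on the list and near the floor, went the other way. It had 0 CPM in every knockout library but 7 (0.485 CPM), against 0.156 to 0.448 CPM in the wild type. With the adipocyte score as a covariate the log2 fold change of Car3 was 0.58 (adjusted p = 0.580), and with the endothelial score it was -0.54 (adjusted p = 0.772, both by the edgeR quasi-likelihood test). Both scores differed between the genotypes, by 2.20 and 2.28 log2 units, so these fits also take out part of the genotype difference. The part of each tissue in the level of Car3 was not tested.

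**Figure D2:**
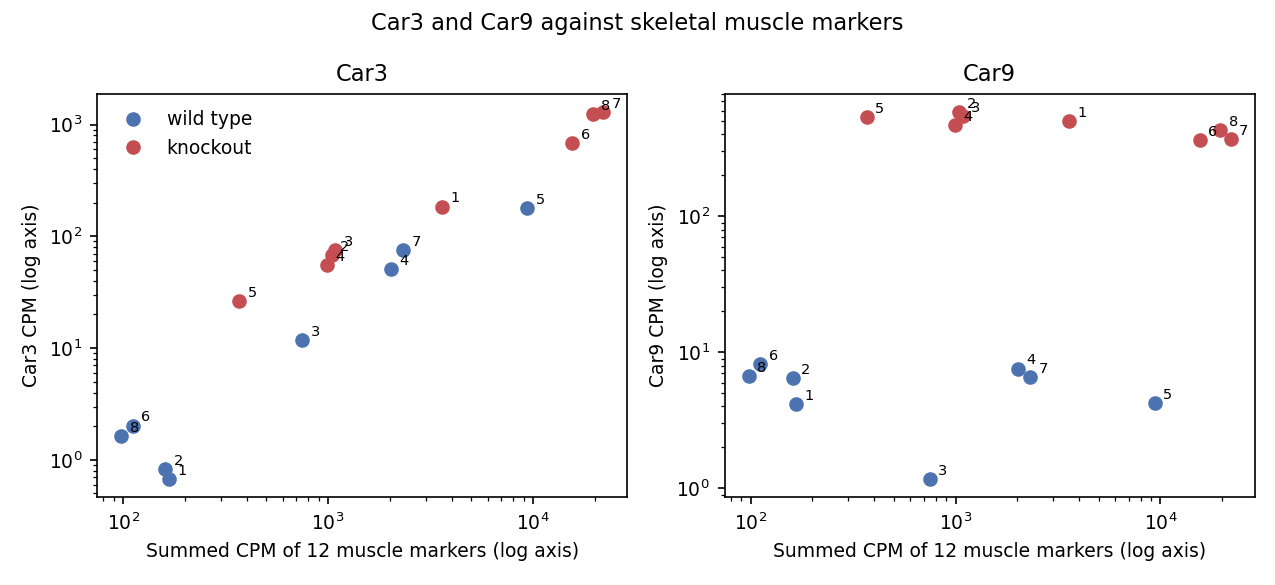
Car3 (left) and Car9 (right) in each library against the summed level of 12 skeletal muscle markers, both in CPM on log axes, with replicate numbers beside the points (blue wild type, red knockout). Car3 rises with muscle RNA in both genotypes, with the knockout libraries above the wild type libraries of like muscle content. Car9 lies between 366 and 587 CPM in the knockout and at 8.18 CPM or below in the wild type at all muscle levels.

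Car13, a low cytosolic enzyme, was measured at 1.54, 2.34 and 3.70 CPM in the knockout and 1.01, 1.52 and 2.79 CPM in the wild type. The groups overlapped, and the highest knockout values were those of libraries 6, 7 and 8 and the highest wild type value that of library 5, the libraries with the most muscle RNA in each genotype. The log2 fold change was 0.62 (SE 0.210, adjusted p = 0.0202 by the edgeR quasi-likelihood test). Deviations of Car13 had r = 0.711 with the muscle score over 16 libraries. With that score as a covariate the difference was 0.30 (adjusted p = 0.201), and with knockout libraries 6, 7 and 8 left out it was 0.28 (adjusted p = 0.311, both by the edgeR quasi-likelihood test). Mean muscle scores differed by 2.42 log2 units between the genotypes, so the covariate fit may also take out part of the genotype difference. The call was also lost without knockout library 6 alone (0.52, adjusted p = 0.0502) and without library 7 alone (0.52, adjusted p = 0.0507).

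Car2, the fast cytosolic enzyme of red cells and osteoclasts, was too low for the edgeR test with all libraries. It had 150 knockout counts, 4 to 45 per library, and 11 wild type counts, 0 to 4 per library. In CPM the values were 0.342, 1.23 and 2.28 in the knockout and 0, 0.0378 and 0.384 in the wild type. The groups overlapped by 1 pair of libraries, knockout 3 and wild type 5. The ratio of pooled counts per scaled library size was 10.4 (95% interval 5.65 to 21.3, counting error only), and the mean log2(CPM + 0.1) differed by 2.72 (exact permutation test, p = 0.0003108, n = 8).

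Markers of both cell types known for Car2 were examined beside it. Erythroid RNA was higher in the knockout: the sum of 7 markers, mostly globin transcripts, was 77.7, 272 and 560 CPM against 15.4, 31.7 and 51.0 CPM, without overlap, and all 5 tested markers had passed the threshold. Slc4a1, the chloride-bicarbonate exchanger of red cells, named after its values had been seen, had 231 knockout counts (12 to 59 per library) and 6 wild type counts (0 to 2 per library), a pooled ratio of 29.4 (95% interval 13.3 to 80.8). Of 6 osteoclast markers, Acp5 and Ctsk were tested and Ctsk fell, and the sum, almost all of it Ctsk, was 165 to 258 CPM in knockout and 249.7 to 444 CPM in wild type libraries. Of the 4 untested osteoclast markers, Mmp9 had 80 knockout counts and 3 wild type counts, Ocstamp 70 and 31, Dcstamp 55 and 21, and Calcr 5 in each. The part of red cells and osteoclasts in the level of Car2 was not tested.

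Slc4a7, the electroneutral sodium-bicarbonate cotransporter, was expressed evenly. It was measured at 39.2, 44.0 and 53.3 CPM in the knockout and 32.5, 39.3 and 44.7 CPM in the wild type. The groups overlapped, with only knockout libraries 1, 4 and 7 above the highest wild type library. The log2 fold change was 0.18 (SE 0.0697, adjusted p = 0.0393 by the edgeR quasi-likelihood test), or 1.13-fold. The call was lost in 16 of 29 other settings, and the adjusted p lay between 2.34e-05, with total counts, and 0.220, with the endothelial score as a covariate. Across those settings the log2 fold change stayed between 0.14 and 0.49. The highest value was that with total counts, which moved the median of all tested genes to 0.32. Relative to that median Slc4a7 stood at 0.17.

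**Figure D3:**
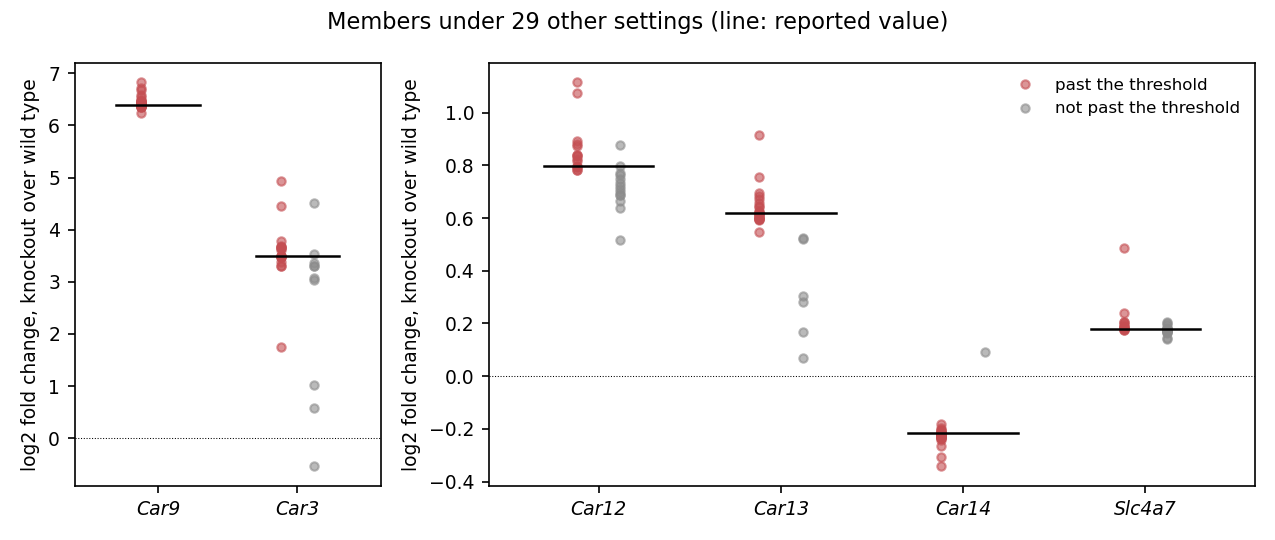
Log2 fold change (knockout over wild type) of the 6 tested genes under 29 other settings of scaling, filter, test, covariates and left-out libraries. Each point is a setting, red where the adjusted p was under 0.05 and grey where it was not, and the black line is the reported value. Car9 stays between 6.23 and 6.83, Car3 runs from -0.54 to 4.93, and Car14 crosses 0 with total counts.

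Levels of different genes were compared per length, as CPM per kb of the union of exons in the GENCODE M21 annotation. In the wild type the highest means of the 16 carbonic anhydrases were those of Car3 (14.1 ± 21.9 CPM per kb), Car14 (5.27 ± 0.299), the mitochondrial Car5b (5.00 ± 0.497) and Car9 (2.44 ± 0.998; SD, n = 8). Car14 and Car5b did not differ beyond their spread on this scale, but per kb of coding length Car5b lay above Car14, at 33.4 ± 3.32 against 13.3 ± 0.752 CPM per kb (SD, n = 8). Car3 exceeded Car9 in wild type libraries 3, 4, 5 and 7 and lay below it in the other 4. In the knockout Car9 (207 ± 35.6 CPM per kb) and Car3 (158 ± 190) led, and these 2 did not differ beyond the spread of Car3. Per length of the longest transcript, Car3 came before Car9 in the knockout, at 270 against 235 CPM per kb.

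Summed over the 16 carbonic anhydrases, the level was 239, 295 and 632 CPM per kb in the knockout and 16.1, 19.4 and 78.8 CPM per kb in the wild type. Without Car3 it was 176, 226 and 270 against 15.5, 17.0 and 18.5 CPM per kb. Without Car3 and Car9 it was 14.3, 14.9 and 17.2 against 13.8, 14.6 and 15.2 CPM per kb, ranges that overlap. Car9 made up 90.2% to 94.5% of the family other than Car3 in the knockout and 3.28% to 19.2% in the wild type.

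**Figure D4:**
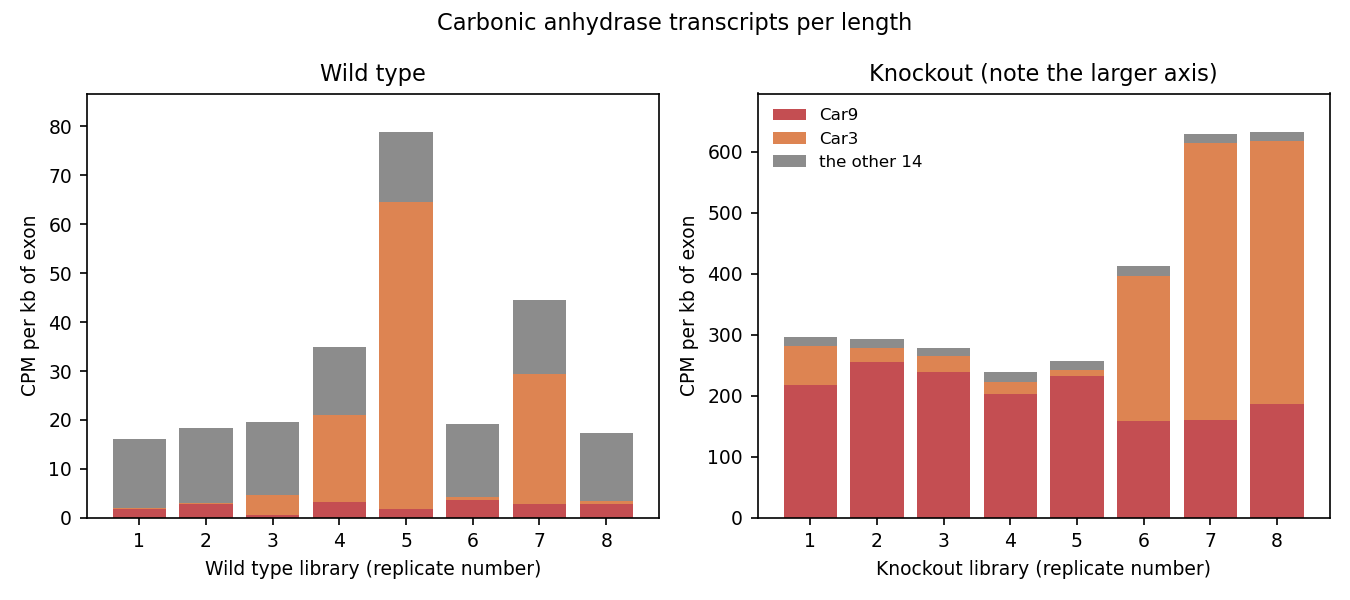
Summed carbonic anhydrase transcripts in each library, in CPM per kb of exon, stacked as Car9 (red), Car3 (orange) and the other 14 genes (grey). The right panel has the larger axis. Car9 fills most of the bar in knockout libraries 1 to 5, Car3 exceeds it in libraries 6, 7 and 8, and the grey part stays between 13.8 and 17.2 CPM per kb in all 16 libraries.

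Of the 9 other carbonic anhydrases, 3 were tested. Car11, a relative without enzyme activity, was the 1 that passed, lower in the knockout at 1.84 ± 0.479 against 3.06 ± 0.631 CPM (log2 difference -0.74, SE 0.180, adjusted p = 0.00212 by the edgeR quasi-likelihood test). The call was lost with total counts (-0.44, adjusted p = 0.0504) and with the adipocyte (-0.59, adjusted p = 0.0708) or endothelial score (-0.66, adjusted p = 0.0993) as a covariate, all by the same test. Car5b differed by 0.22 (adjusted p = 0.0981) and Car15 by 0.19 (adjusted p = 0.430, both by the same test), and exons of Gm20518 cover 65.7% of the Car15 exon bases on the same strand, so its count is uncertain.

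Car6, the secreted enzyme known from saliva, was below the filter but had counts in every knockout library. It had 83 counts there, 5 to 14 per library, and 1 count in all wild type libraries. The pooled ratio was 63.3, with a wide counting interval of 11.0 to 2529 at 95%. The groups did not overlap, and the mean log2(CPM + 0.1) differed by 2.87 (exact permutation test, p = 0.0001554, n = 8). Its level was still low, at most 1.11 CPM. Car1, Car5a, Car7, Car8 and Car10 were also not tested, each at most at 1.36 CPM in any library.

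The wider set of acid-base genes held 74 genes beside the 8, of which 49 were tested and 17 (34.7%) passed, 10 higher and 7 lower. This share lay below that of all tested genes. The median log2 fold change was 0.088. With total counts 39 passed, 36 higher and 3 lower, and over all tested genes the higher share of calls moved from 53.0% to 85.4%. Genes named in the next 3 paragraphs without group overlap came from a fixed naming rule, and the others were named after their values had been seen.

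Among the tested genes of this wider set, carriers that move lactate together with a proton, and their chaperones, held the largest changes. Of 6 genes, Slc16a3, Bsg and Emb rose, Slc16a1 fell, and 2 were not past the threshold (66.7% past it, against 48.3% of all tested genes). Slc16a3 encodes the lactate exporter MCT4. It was measured at 305, 360 and 536 CPM in knockout libraries, against 3.97, 6.86 and 15.5 CPM without the deletion, far apart (log2 difference 5.54, SE 0.290, adjusted p = 9.58e-11 by the edgeR quasi-likelihood test). Bsg, the chaperone that carries it to the membrane, rose from 194 ± 25.1 to 1299 ± 297 CPM (2.74, SE 0.135, adjusted p = 3.71e-12 by the same test). Slc16a1, which encodes MCT1, differed by -0.44 and Emb, another chaperone, by 0.65. ACGTG lay at -27 and at -14 in the promoter of Slc16a3. In that of Slc16a1, which fell, it lay at 20 and at -200 and -199, the last pair being the same letters CACGTG read on both strands. It occurred in 14 of the 70 listed genes' promoters in the table (20%), close to the share of all promoters.

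Tested transporters of the same kinds as Slc4a7 passed the threshold less often than the 48.3% of all tested genes, in lists too short to weigh. Of 5 tested SLC4 genes other than Slc4a7, 1 (20%) passed, the sodium-bicarbonate cotransporter Slc4a4 (0.54, adjusted p = 0.00105 by the edgeR quasi-likelihood test). Its values ran from 26.3 to 44.0 CPM in the knockout and 16.7 to 32.8 CPM in the wild type. Of 7 tested sodium-proton exchangers, 1 (14.3%) passed: Slc9a5 rose from 0.692 ± 0.283 to 2.57 ± 0.747 CPM without overlap (1.90, SE 0.241, adjusted p = 2.12e-06 by the same test). The 1 tested SLC26 exchanger and the proton channel Hvcn1 were not past the threshold.

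Of 21 tested subunits and accessory genes of the V-ATPase, the pump that acidifies lysosomes, 3 rose and 4 fell. That is 33.3% past the threshold, against 48.3% of all tested genes. Atp6v0e2 fell from between 15.6 and 24.7 CPM to between 5.90 and 8.40 CPM (log2 fold change -1.45, adjusted p = 6.10e-10 by the edgeR quasi-likelihood test). Atp6v1a, the catalytic subunit, differed by -0.61 and Atp6v0e by -0.44, both without overlap. Atp6v0e lost the call with total counts, at -0.14, and with the endothelial score as a covariate, at -0.24. Atp6ap2 also fell (-0.41), and Atp6v0d2 (1.28), Tcirg1 (0.31) and Atp6ap1 (0.31) rose. Among genes of proton sensors, the receptor gene Gpr132 rose (1.58) and Asic1, which encodes an acid-gated sodium channel, fell from 8.40 ± 1.63 to 4.42 ± 0.848 CPM without overlap (-0.92, adjusted p = 1.90e-05 by the same test).

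**Figure D5:**
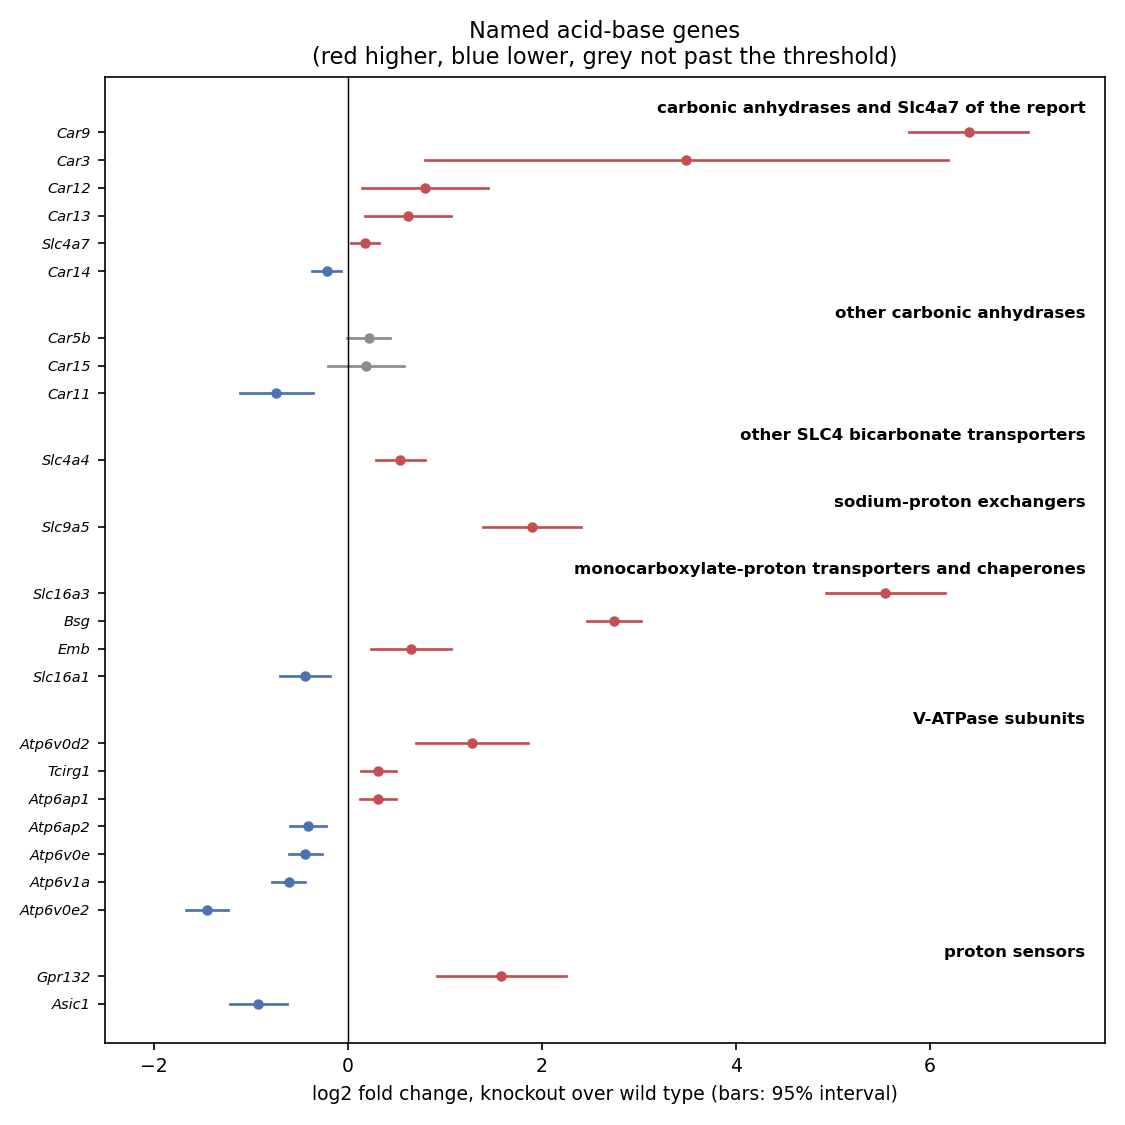
Log2 fold change (knockout over wild type) with its 95% interval for the 6 tested genes and 18 other acid-base genes, grouped by list: the other tested carbonic anhydrases and, from the other lists, genes past the threshold that the text names. Red is higher and blue lower at an adjusted p under 0.05, and grey is not past the threshold. Car9 (6.40) and Slc16a3 (5.54) lie farthest to the right, and Atp6v0e2 (-1.45) lies farthest to the left.

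Genes whose library-to-library deviations were most like those of the other members were named by the same rule as for Car3, with no test. For Car9 they were Mppe1 (r 0.925), Igfbp2 (0.919) and Mknk1 (0.911), and for Car13 Selenow (0.911), Maoa (0.879) and Acyp2 (0.877), each over 16 libraries. The highest r was 0.770 for Car12 (Cdyl2), 0.818 for Car14 (Slpi) and 0.836 for Slc4a7 (E330034L11Rik). Car13 itself had r = 0.711 with the muscle score, and Car9 was lowest of the wild type in library 3. The part of either in these correlations was not tested.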

How the data were processed

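The deposited files hold raw counts, 1 whole number per gene and library under the heading matchCounts per the file headers, for 25719 genes with Ensembl identifiers, of which 25614 were matched to a symbol. Per the submitters' processing notes the build was GRCm39 and the tools were kallisto and featureCounts, without versions or roles. Annotation and strand setting were not given in the sources used here, so no gene coordinates are printed, and chromosomes, neighbours, exon overlaps and lengths came from GENCODE M21 (GRCm38).

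Knockout was compared with wild type by the edgeR 4.0.16 quasi-likelihood F test (robust, TMM scaling, filterByExpr, genotype only, R 4.3.3), with Benjamini-Hochberg adjustment over 14803 tested genes and a threshold of 0.05. Car2 and Car6, as log2(CPM + 0.1), the ratios of Car3 and marker scores were compared by two-sided exact permutation tests over 12870 assignments. Marker scores are mean log2 CPM (prior count 2) of tested genes. Counting error is all that the intervals of pooled count ratios and the floor of 3 counts cover. Intervals of fold changes were built from the SE of the edgeR fit, so they also cover the spread between libraries. Libraries of a group were compared, and none repeated another (smallest chi-square per degree of freedom 6.56).

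Genes outside the 8 were named by a rule where they met it: every carbonic anhydrase, at most 3 genes per list and direction past the threshold without overlap, and the 3 most alike each member. Markers and other listed genes that overlapped or were not tested were named after their values had been seen. The members and lists were chosen with earlier results of these data known. Alternatives were other scalings, filters, DESeq2 1.42.0, limma 3.58.1 (voom), a replicate block, marker and Y-linked covariates, each library left out and, chosen after seeing the data, leaving out knockout libraries 6, 7 and 8. The fit was tested on simulated data. Some listed genes are not reported here.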

Additional observations from a re-analysis of the deposited data

Results flagged for a closer look

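In 40 checks of 8 libraries each, 1 library stood apart from the rest of its group, where chance gives about 1 in 20 checks, or 2. Wild type library 3 had the lowest Car9 level, 0.35 in log2(CPM + 0.1), with the next wild type library at 2.09, a gap of 0.644 of the whole range. Without that library the log2 fold change of Car9 was 6.23, the lowest of all settings tried, against 6.40 with it.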

How the results depend on the processing

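Over 29 other settings Car9 kept its direction and its call (6.23 to 6.83). Of the 6 tested members, 2 passed with the adipocyte or endothelial score as a covariate or without knockout libraries 6, 7 and 8, and 3 to 6 passed with 1 library left out, with 3 passing without knockout library 7 or 8 or wild type library 3, 4 or 8. Car2 entered the test, and passed, without a filter (3.23), at a mean count of at least 10, and without any 1 wild type library or knockout library 3, so that 3 to 7 members passed in all with 1 library left out. Of the listed acid-base genes, 39 passed with total counts. Calls over all genes also fell in these settings, so the member counts are to be read beside them. Of 14803 tested genes 7151 passed in the main fit and 4715 with the endothelial score. With the adipocyte score 2958 were higher and 2559 lower. Without knockout libraries 6, 7 and 8, 3234 of 14944 were higher and 3031 lower. With 1 library left out 6790 to 7151 passed.

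Car3 lost its call with the adipocyte score (0.58) and without knockout libraries 6, 7 and 8 (1.02), and turned to -0.54 with the endothelial score. The adipocyte and endothelial scores differed between the genotypes, so for every member such a fit also takes out part of the genotype difference. The mean muscle score differed by 2.42 log2 units, not past the threshold, and fits with it may do the same. With 1 library left out Car3 lay between 3.04 and 4.46, not past the threshold without wild type library 3, 4, 6 or 8 or knockout library 7 or 8. Its ratio to Myh7 alone was -0.43, against 2.00 with all muscle markers. Car12 lost its call with voom (0.70), the muscle (0.88), adipocyte (0.64) and endothelial scores (0.52) and without the 3 libraries (0.72). With 1 library left out it lay between 0.67 and 1.07, not past the threshold without knockout library 1, 4, 5 or 8 or wild type library 3, 4, 6, 7 or 8. Car13 lost its call with the muscle (0.30), adipocyte (0.17) and endothelial scores (0.071) and without the 3 libraries (0.28), and lay between 0.52 and 0.76 with 1 library left out. Car14 turned to 0.092 with total counts. Slc4a7 lost its call with DESeq2 size factors (0.17), no filter (0.18), the DESeq2 test (0.16), the adipocyte (0.20) and endothelial scores (0.19) and without the 3 libraries (0.21). With 1 library left out it lay between 0.14 and 0.21, not past the threshold without knockout library 1, 4, 7 or 8 or wild type library 1, 3, 4, 5 or 8. The cause was not tested.

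With the replicate number as a block, Car3 was at 4.51 (adjusted p = 0.0815, edgeR) and Slc4a7 at 0.18 (adjusted p = 0.0588), both not past the threshold, and the block changed no other member's call. Same-numbered libraries did not deviate together (correlations from -0.40 to 0.39), so the numbers are not taken to pair them.

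With total counts the marker score differences were -0.18 for osteoclast, 0.42 for macrophage and 0.80 for Schwann cell lists. With 1 library left out the Schwann list lay between 0.35 and 0.65, past the threshold without knockout library 3 or wild type library 5, and the muscle list between 2.02 and 3.02, past it without wild type library 5. Low counts limit the precision of Car2, Car4 and Car6, which were below the filter with all libraries.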
